A study of Homo sapiens with 8 samples.

Results

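The nuclear receptors examined here are 46 genes of the nuclear receptor family of transcription factors, taken by their symbols from the 37441 genes of the count table. NR0B1 was included with its strong rise in NCI-H1703R cells already known. Of the 46 genes, 39 reached 10 counts when the 8 libraries were summed and could be tested among 18203 such genes, and 7 (NR1H4, NR1I2, RXRG, NR2E3, ESR1, PGR and NR0B2) did not. RNA was sequenced from NCI-H1581 and NCI-H1703, human non-small cell lung cancer lines that respond to inhibition of fibroblast growth factor receptors (FGFR), and from variants of each line made resistant to the FGFR inhibitor CPL304110. NCI-H1581R cells had been selected from 50 nM up to 2.5 µM of the inhibitor and NCI-H1703R cells from 50 nM up to 5 µM, over 4 to 6 months, while the sensitive cells had not been selected. The lines were kept in different media, which cannot be told apart from the line. Each of the 4 groups had 2 libraries from repeated cultures, harvested 24 h after a change of medium. Each resistant variant came from a single selection of its line, and the sources used here do not state whether the inhibitor was present at harvest.

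Nuclear receptors bind DNA at short half-sites, often as pairs of receptors, and many of them are switched by small lipid-soluble ligands such as steroids, retinoic acid, thyroid hormone, oxysterols and fatty acids. Ligand exchanges co-repressors for co-activators on the receptor, and the retinoid X receptors serve as shared partners for many of the others. Orphan members such as COUP-TFs, NR4A proteins and the atypical NR0B proteins, which lack the usual DNA-binding domain, are thought to act largely without a classical hormone.

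The windows before the starts of NR0B1, NR5A2 and RORA are shown because these receptors changed the most by ratio of mean CPM. RefSeq windows on GRCh38.p14 were held for 41 of the 46 genes, and only the 250 bases before each start were used. NR0B1 is shown at chrX:30309391-30309640 on the minus strand, NR5A2 at chr1:200042341-200042590 on the plus strand (one of 2 start windows, the other overlapping exons of the gene), and RORA at chr15:60627531-60627780 on the minus strand. The windows of NR5A2 and RORA lie inside the spans of their genes. Capitals mark the nuclear receptor half-site AGGTCA, which was searched on both strands, as was the cAMP response element TGACGTCA.
NR0B1: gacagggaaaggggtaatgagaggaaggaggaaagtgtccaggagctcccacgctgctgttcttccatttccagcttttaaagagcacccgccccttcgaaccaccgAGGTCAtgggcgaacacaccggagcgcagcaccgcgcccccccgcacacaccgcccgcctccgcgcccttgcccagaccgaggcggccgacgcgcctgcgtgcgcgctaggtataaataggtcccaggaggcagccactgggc
NR5A2: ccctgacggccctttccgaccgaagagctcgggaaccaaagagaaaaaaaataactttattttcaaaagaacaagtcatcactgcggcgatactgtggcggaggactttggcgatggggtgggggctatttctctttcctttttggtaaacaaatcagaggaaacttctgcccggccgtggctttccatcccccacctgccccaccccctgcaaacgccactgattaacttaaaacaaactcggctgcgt
RORA: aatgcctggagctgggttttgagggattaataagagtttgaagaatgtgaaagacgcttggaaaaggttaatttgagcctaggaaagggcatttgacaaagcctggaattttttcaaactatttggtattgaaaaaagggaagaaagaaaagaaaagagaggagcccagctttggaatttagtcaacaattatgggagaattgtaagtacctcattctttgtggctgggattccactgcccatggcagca
The half-site lay 143 bases before the start of NR0B1. These letters were not in the printed windows of NR5A2 and RORA, and the other window of NR5A2 held them. It was held by 15 of 96 windows of nuclear receptor genes (15.6%) and by 12.1% of all 35116 windows of this length. The cAMP response element was held by 2 of the 96 windows (2.08%), those of NR2E1 and NR6A1, and by 1.65% of all windows. A match describes letters in these windows and nothing was measured of binding.

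The 8 libraries held 33800389 to 40031710 counts, so that a gene at 3 counts in a library stood at 0.0749 to 0.0888 CPM (counts scaled to a common library size). The label of lung cancer was checked against marker genes. VIM, a mesenchymal filament gene, was at 2850 to 6400 CPM on average in each group, while the epithelial EPCAM was at 0.37 to 14.5 CPM, and CD3E and INSM1, markers of T cells and neuroendocrine cells, had 0 counts in all libraries. The other neuroendocrine and the immune and endothelial markers were low except SYP (9.62 to 92.2 CPM on average) and CD68 (16.7 to 87 CPM). The summed level of 5 epithelial markers was 73.3 to 75.6 CPM in NCI-H1703 and 6.76 to 8.41 CPM in NCI-H1703R. This drop came mostly from KRT18 (64.9 to 2.68 CPM on average). The other epithelial markers were lower in NCI-H1703R too, but at 5.83 CPM or less on average in both variants. The summed level of 3 lung adenocarcinoma markers was 15.6 to 17.5 CPM in NCI-H1581 and 41.5 to 61.5 CPM in NCI-H1581R, and that of 4 squamous markers was 6.62 to 7.24 and 28 to 32.6 CPM. These sums followed single genes, NKX2-1 (14.3 to 49.8 CPM on average) and TP63 (6.03 to 29.5 CPM). SFTPB (2.01 to 1.2 CPM), KRT5 (0.602 to 0.521) and DSG3 (0.288 to 0.246) were instead lower in NCI-H1581R. Among 4 mesenchymal markers FN1 went from 1.02 to 832 CPM and ZEB1 from 1.98 to 25.3 CPM in NCI-H1581R. VIM and CDH2 (2.85 to 1.08 CPM) were lower there. In NCI-H1703R CDH2 went from 49.4 to 1.12 CPM, and the other mesenchymal markers were lower as well. The part of these shifts in the receptor changes below was not tested, and in bulk RNA fewer cells of a type cannot be told apart from less RNA per cell.

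Of the 46 receptors, 19 were at 1 CPM or more in all 8 libraries and 6 (NR1H4, NR1I2, RXRG, NR2E3, PGR and NR0B2) had fewer than 3 counts in each. Levels between genes were compared as RPKM, the CPM value per kilobase of mean transcript length. The COUP-TF genes NR2F1 and NR2F6, orphan receptors that mostly repress transcription, were the highest in both sensitive lines. In sensitive NCI-H1581 cells NR2F6 was at 97.6 and NR2F1 at 94.1 RPKM, and in sensitive NCI-H1703 cells they were at 143 and 169 RPKM. In NCI-H1581 the libraries of these 2 genes overlapped (90.4 to 105 for NR2F6, 93.1 to 95.2 for NR2F1), so their order there was not separated by the replicates. They were followed in NCI-H1581 by RARG (43 RPKM), THRA (42.7) and NR4A1 (41.6), whose libraries also overlapped, and in NCI-H1703 by RARG (106), NR1H2 (61.3) and THRA (38.1). With the longest transcript as length, NR2F6 stood above NR2F1 and RARG in all 4 groups.

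In the resistant variants this order changed at a few places. RARG, the gamma receptor for retinoic acid, was first in NCI-H1703R at 128 RPKM by mean transcript length and was not among the leading 5 of NCI-H1581R. NR0B1 followed NR2F6 (118) and NR2F1 (101) in NCI-H1703R at 65.3 RPKM. NR3C1, the glucocorticoid receptor, differed by line and had 2 to 12 counts in each NCI-H1581 or NCI-H1581R library and 3229 to 3749 in each NCI-H1703 or NCI-H1703R library. The map of levels per length shows these contrasts for all 46 genes.

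**Figure D1:**
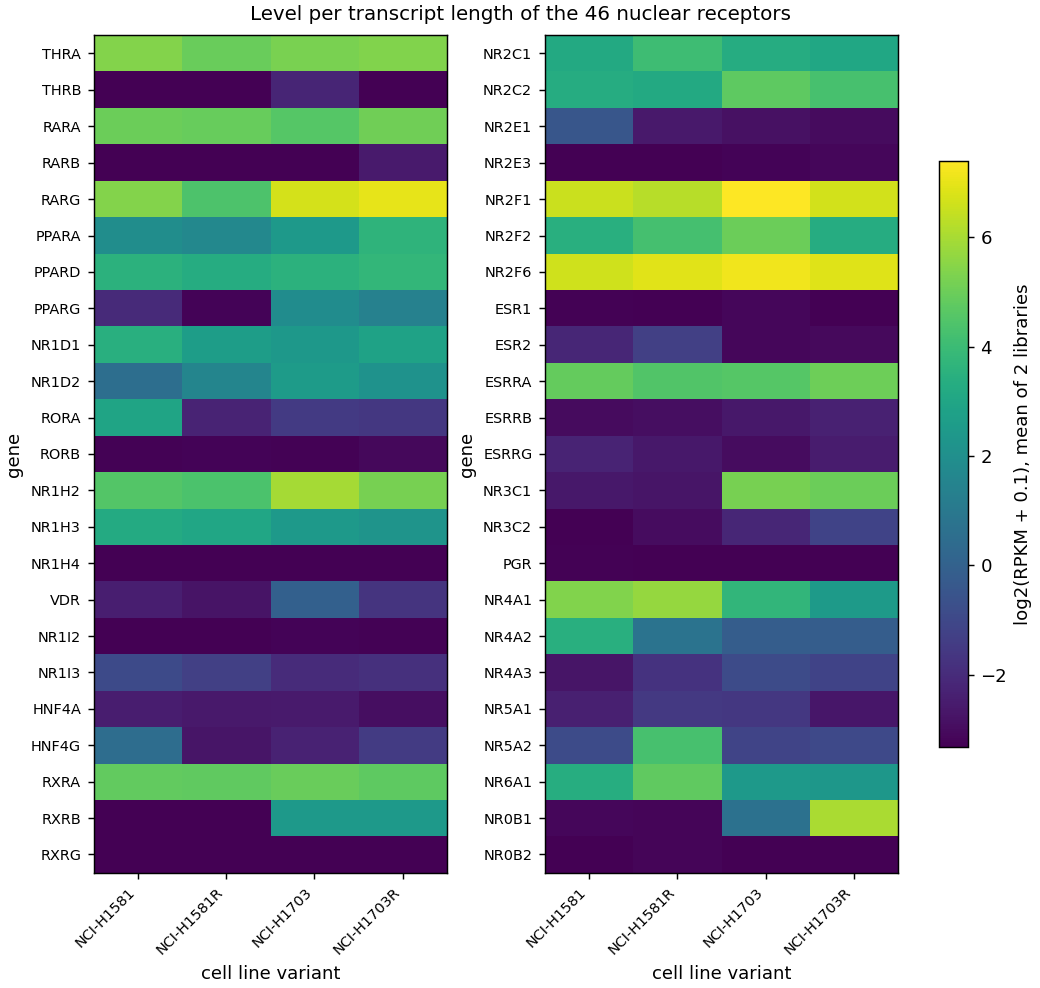
Level of each of the 46 nuclear receptors (rows) in the 4 cell line variants (columns), as the colour of log2(RPKM + 0.1), averaged over 2 libraries. NR2F1 and NR2F6 were bright in every column, NR3C1 was bright in the NCI-H1703 columns, and NR5A2 and NR0B1 were bright in NCI-H1581R and NCI-H1703R, respectively.

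To ask which receptors changed with resistance, each line was tested on its own with edgeR's quasi-likelihood test, and a gene was called at an adjusted p under 0.1 (Benjamini-Hochberg over all 18203 genes). In NCI-H1581R, 11 of the 39 receptors were called (28.2%) beside 15.1% of all genes. Of these, 5 were higher (12.8%, beside 7.63% of all genes) and 6 were lower (15.4%, beside 7.44%). In NCI-H1703R, 14 of 39 were called (35.9%) beside 14.7% of all genes, with 6 higher (15.4%, beside 7.06%) and 8 lower (20.5%, beside 7.67%). All 11 and all 14 had libraries of the 2 variants that did not overlap in CPM. The share of all genes without such overlap was not counted, so this adds no support to the calls. With the replicate number as a block, 23 of 39 were called in NCI-H1703R, beside 34.9% of all genes, and the same 11 in NCI-H1581R, beside 18.1%.

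The sizes of the changes are given as a description. Among receptors with at least 10 counts in the line, the median absolute log2 fold change was 0.79 in NCI-H1581R (34 receptors), beside 0.40 over 16661 genes, and 0.49 in NCI-H1703R (38 receptors), beside 0.28 over 16244 genes. The signed medians were -0.19 and -0.08, beside 0.05 and 0.01 over all genes. Changes over 2-fold were called for 7 receptors in each line, 20.6% of them in NCI-H1581R beside 11.3% of all genes, and 18.4% in NCI-H1703R beside 6.01%. The 7 in NCI-H1703R include NR0B1 and THRB, with the limits given above.

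These counts depended on the libraries, and the share of all genes called in the fits without a library is not given here. Without the first or the second library of NCI-H1581, 6 receptors were called in that line, namely HNF4G, NR2E1, NR4A2, NR5A2, NR6A1 and RORA, which were also called under every other alternative in which they were tested. Without either library of NCI-H1703, 3 were called there, namely NR0B1, NR2F2 and PPARA, and without the first or the second library of NCI-H1703R 9 and 7 were called.

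Among the orphan receptors of the NR5A and NR6A group, NR5A2 and NR6A1 were higher in NCI-H1581R. NR5A2 (LRH-1), a receptor known from liver, pancreas and early embryonic cells, had 43 and 54 counts in NCI-H1581, 2437 and 2039 in NCI-H1581R, 44 and 32 in NCI-H1703 and 53 and 41 in NCI-H1703R. Only the NCI-H1581R libraries were high, and the other 6 were all within 32 to 54 counts. The rise was 44.5-fold, from 1.31 ± 0.0511 to 58.3 ± 9.16 CPM (SD, n = 2), with a log2 fold change of 5.47 ± 0.26 (SE, edgeR adjusted p = 9.59e-05).

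NR6A1 (GCNF), which represses pluripotency genes in germ and embryonic cells, had 882 and 1126 counts in NCI-H1581, 2561 and 3187 in NCI-H1581R, 619 and 415 in NCI-H1703 and 561 and 462 in NCI-H1703R. It rose 2.76-fold in NCI-H1581R (log2 fold change 1.47 ± 0.18, edgeR adjusted p = 0.00393), and the 2 variants of NCI-H1703 overlapped. Its neighbour on chromosome 9, NR5A1 (SF-1), the regulator of steroid-making tissues, stayed low, with 4 and 9 counts in NCI-H1581, 16 and 20 in NCI-H1581R, 23 and 9 in NCI-H1703 and 6 and 2 in NCI-H1703R. It was called in neither line, and with the replicate block it was called lower in NCI-H1703R.

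The receptors of the circadian clock moved in NCI-H1581R as well. RORA, which activates clock genes through the same sites at which REV-ERB proteins repress them, had 627 and 1044 counts in NCI-H1581, 11 and 13 in NCI-H1581R, and 27 and 25 in both variants of NCI-H1703. It was thus high in the sensitive NCI-H1581 cells alone. The fall was 70.7-fold, from 22.3 ± 5.28 to 0.311 ± 0.0268 CPM (SD, n = 2), the largest fold among the receptors of that line, with a log2 fold change of -6.14 ± 0.41 (edgeR adjusted p = 0.000327).

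The REV-ERB genes moved in opposite directions to each other. NR1D1 (REV-ERB alpha) had 979 and 1093 counts in NCI-H1581 and 562 and 678 in NCI-H1581R, a fall by 0.80 ± 0.19 on the log2 scale (edgeR adjusted p = 0.0464), and 591 and 371 in NCI-H1703 beside 729 and 679 in NCI-H1703R. NR1D2 (REV-ERB beta) had 204 and 323 counts in NCI-H1581 and 611 and 539 in NCI-H1581R, a rise of 1.08 ± 0.25 (edgeR adjusted p = 0.0435). In NCI-H1703 it was instead lower with resistance, at 1093 and 1056 counts against 859 and 866 in NCI-H1703R (log2 fold change -0.39 ± 0.11, edgeR adjusted p = 0.0862). That call was lost in a single fit of all 8 libraries and when any 1 of the 4 NCI-H1703 and NCI-H1703R libraries was left out. With the replicate block NR1D1 was called higher there (0.50 ± 0.12). None of these groups overlapped, and the calls of NR1D1 and NR1D2 in NCI-H1581R were lost without either NCI-H1581 library. Exons of NR1D1 overlap those of THRA on the other strand over 473 bases (18% of NR1D1), and whether reads were assigned by strand is not given in the sources used here.

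The NR4A genes, immediate early receptors that are induced by growth factor and stress signals, changed separately. NR4A2 (NURR1) had 772 and 856 counts in NCI-H1581, 124 and 131 in NCI-H1581R, 84 and 35 in NCI-H1703 and 48 and 75 in NCI-H1703R. It fell 6.63-fold in NCI-H1581R (log2 fold change -2.73 ± 0.22, edgeR adjusted p = 0.000668), and the 2 variants of NCI-H1703 overlapped. NR4A1 (NUR77) had 2426 and 2600 counts in NCI-H1581, 2626 and 3935 in NCI-H1581R, 871 and 651 in NCI-H1703 and 349 and 361 in NCI-H1703R. It was called in NCI-H1703R only, with a fall of 2.25-fold (log2 fold change -1.17 ± 0.14, edgeR adjusted p = 0.00898, lost without either NCI-H1703 library), and it was also called in NCI-H1581R without the first library of that variant (0.57). NR4A3 (NOR1) was low everywhere, at 4 to 90 counts, and was called in neither line.

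HNF4G and NR2E1 were lower in NCI-H1581R too. HNF4G, a receptor of gut and kidney epithelia, had 150 and 171 counts in NCI-H1581, 8 and 5 in NCI-H1581R, 13 and 11 in NCI-H1703 and 40 and 27 in NCI-H1703R. The fall in NCI-H1581R was 25.2-fold (log2 fold change -4.65 ± 0.52, edgeR adjusted p = 0.00241). In NCI-H1703R its value was 2.64-fold higher without passing the test (edgeR adjusted p = 0.188), and with the replicate block it was called (log2 fold change 1.41 ± 0.51). NR2E1 (TLX), a repressor that maintains neural stem cells, had 45 and 53 counts in NCI-H1581 and 5 and 6 in NCI-H1581R, a fall of 9.06-fold (log2 fold change -3.18 ± 0.65, edgeR adjusted p = 0.0257), and at most 4 counts in any NCI-H1703 or NCI-H1703R library. Its level was low throughout, with a highest mean of 1.33 CPM.

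NR2C1 (TR2), an orphan repressor, had 455 and 760 counts in NCI-H1581 and 967 and 1325 in NCI-H1581R, a rise of 0.87 ± 0.25 on the log2 scale (edgeR adjusted p = 0.0865). This call was lost when either library of NCI-H1581 or the second of NCI-H1581R was left out. Its partner NR2C2 (TR4) was called in NCI-H1703R, where 2595 and 2258 counts in NCI-H1703 became 1946 and 1862 (log2 fold change -0.42 ± 0.09, edgeR adjusted p = 0.0451). The NR2C2 call was lost in a single fit of all 8 libraries, and without either NCI-H1703 library or the second of NCI-H1703R. Of the exon bases of NR2C2, 61.9% overlap genes on the other strand.

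NR0B1 (DAX1), an atypical receptor that represses NR5A1-driven genes in steroid-making tissue, showed the largest rise among the receptors called in NCI-H1703R, which is given as a description since it was known beforehand. It had 77 and 46 counts in NCI-H1703 and 2833 and 2821 in NCI-H1703R, and 1 and 0 in each variant of NCI-H1581. Both NCI-H1703R libraries were high, and the gene was close to silent in NCI-H1581 with or without resistance. The level went from 1.73 ± 0.499 to 74.7 ± 0.309 CPM (SD, n = 2), 43.7-fold, with a log2 fold change of 5.45 ± 0.17. Its relative NR0B2 (SHP) had 1 count in 1 library and 0 in the others.

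**Figure D2:**
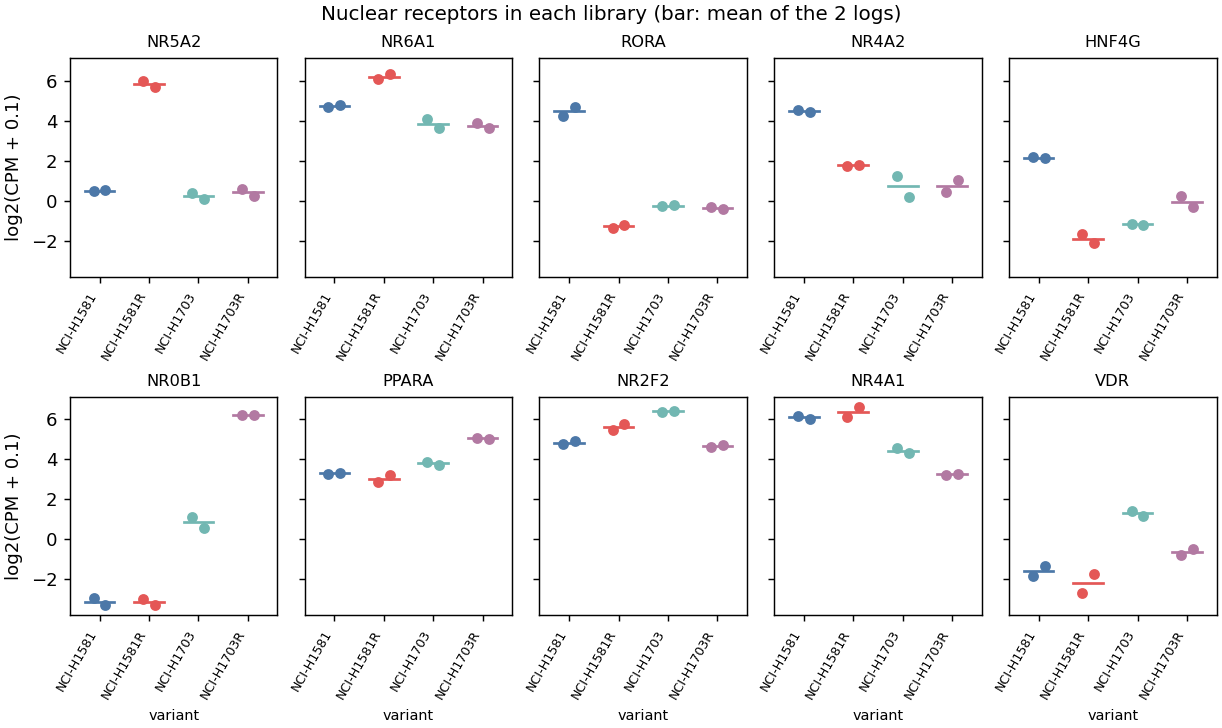
Level of 10 nuclear receptors in each library, as log2(CPM + 0.1) on the y axis by cell line variant on the x axis, with a point for each of 2 libraries and a bar at their mean. NR5A2 was high in NCI-H1581R alone, NR0B1 in NCI-H1703R alone, and RORA, NR4A2 and HNF4G were highest in sensitive NCI-H1581.

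PPARA, the fatty acid receptor that drives lipid oxidation in liver, rose in NCI-H1703R. It had 326 and 402 counts in NCI-H1581, 268 and 356 in NCI-H1581R, 540 and 442 in NCI-H1703 and 1265 and 1231 in NCI-H1703R. The NCI-H1703R libraries were the highest, 2.42-fold above NCI-H1703 (log2 fold change 1.28 ± 0.11, edgeR adjusted p = 0.00317). PPARD, with 1114 to 1900 counts in every library, was called in neither line, and with the replicate block it was higher in NCI-H1703R (0.24 ± 0.08). PPARG, the adipocyte receptor, had 206 and 198 counts in NCI-H1703 and 159 and 140 in NCI-H1703R, against 0 to 16 in the libraries of the other line. It passed the test in NCI-H1703R only with the replicate block (log2 fold change -0.51 ± 0.20).

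The COUP-TF gene NR2F2, a regulator of vascular and mesenchymal identity, moved in opposite directions. It had 902 and 1208 counts in NCI-H1581, 1650 and 2105 in NCI-H1581R, 3094 and 2838 in NCI-H1703 and 936 and 1008 in NCI-H1703R. Resistance thus went with more NR2F2 in the line where it had been lower and less where it had been higher. The rise in NCI-H1581R was 1.72-fold (log2 fold change 0.78 ± 0.19, edgeR adjusted p = 0.0528, lost without either NCI-H1581 library), and the fall in NCI-H1703R was 3.21-fold (-1.68 ± 0.09, edgeR adjusted p = 0.000942). NR2F1 fell in NCI-H1703R as well, from 11951 and 10675 counts to 7079 and 7426 (a change of -0.71 ± 0.09 on the log2 scale, edgeR adjusted p = 0.0082, lost without either NCI-H1703 library). In NCI-H1581 it had 6101 and 7089 counts, and 4545 and 6550 in NCI-H1581R, which did not pass the test (-0.31 ± 0.20) unless the second NCI-H1581R library was left out (-0.58). NR2F6 was called in neither line, with 5493 and 5639, 7938 and 6427, 8220 and 7463, and 6513 and 7455 counts in NCI-H1581, NCI-H1581R, NCI-H1703 and NCI-H1703R. With the replicate block it was called lower in NCI-H1703R by a small amount (-0.24 ± 0.06), and without the second NCI-H1581R library it was called higher in NCI-H1581R (0.47).

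VDR, the vitamin D receptor, and NR1H2 (LXR beta), an oxysterol receptor that controls cholesterol export, were lower in NCI-H1703R. VDR had 95 and 72 counts in NCI-H1703, 18 and 23 in NCI-H1703R and 2 to 12 in the libraries of the other line. The fall was 4.26-fold (log2 fold change -2.09 ± 0.40, edgeR adjusted p = 0.0328), and the call was lost when any 1 of the 4 libraries was left out (log2 fold changes of -2.28 to -1.92). NR1H2 had 3593 and 3318 counts in NCI-H1703 and 1986 and 2431 in NCI-H1703R (-0.72 ± 0.12, edgeR adjusted p = 0.0204), and 1194 to 1410 in the libraries of the other line, where the variants overlapped. This call was lost without either NCI-H1703 library, and 22.1% of the exon bases of NR1H2 overlap NAPSA on the other strand. NR1H3 (LXR alpha) was called in neither line, at 177 to 433 counts.

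Among the thyroid hormone receptors, THRA had 2838 and 3076 counts in NCI-H1581, 2021 and 2418 in NCI-H1581R, 2564 and 2480 in NCI-H1703 and 3078 and 2822 in NCI-H1703R. It was called in neither line by the main test. In NCI-H1581R it was called lower by DESeq2 (-0.50), in a single fit of all 8 libraries (-0.48), and without the first (-0.37) or second (-0.59) NCI-H1581R library. THRB had 23 and 5 counts in NCI-H1703, 0 in both NCI-H1703R libraries and 0 in all NCI-H1581 and NCI-H1581R libraries. It was at least 4.87-fold lower in NCI-H1703R, set against a floor of 3 counts per library (edgeR adjusted p = 0.0814), but the call was lost when any 1 of the 4 libraries was left out and was not made by DESeq2.

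NR3C2, the mineralocorticoid receptor, rose from 26 and 17 counts in NCI-H1703 to 71 and 57 in NCI-H1703R, 2.82-fold (edgeR adjusted p = 0.0946). The call was not made by DESeq2 or with no filter on low counts, and was lost when any 1 of the 4 libraries was left out (log2 fold changes of 1.31 to 1.74). In the other line it had 0 and 1 counts, and 8 and 3 with resistance. NR3C1 was at 3749 and 3700 counts in NCI-H1703 and 3229 and 3714 in NCI-H1703R, and passed the test only with the block (-0.18 ± 0.06).

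ESRRA, an orphan receptor of mitochondrial genes, had 1771 and 1676 counts in NCI-H1581, 1425 and 1308 in NCI-H1581R, 1418 and 1283 in NCI-H1703 and 1940 and 2023 in NCI-H1703R. It rose in NCI-H1703R (log2 fold change 0.48 ± 0.09, edgeR adjusted p = 0.0325). This call was lost in a single fit of all 8 libraries, and without either NCI-H1703 library or the second of NCI-H1703R. The lower values of ESRRA in NCI-H1581R passed the test only in that single fit (-0.41) and without the first NCI-H1581R library (-0.48). ESRRB and ESRRG had at most 16 counts in any library. HNF4A, RORB and NR1I3 had at most 9, 7 and 19 counts and were not called with resistance in either line. ESR2 had 15 and 13 counts in NCI-H1581 and 33 and 41 in NCI-H1581R without being called, and ESR1 had at most 3.

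The retinoic acid receptors differed between the lines. RARG had 2575 and 2483 counts in NCI-H1581, 1170 and 1477 in NCI-H1581R, 6463 and 5608 in NCI-H1703 and 7739 and 7824 in NCI-H1703R. It fell 2-fold in NCI-H1581R (SE 0.19 on the log2 scale, edgeR adjusted p = 0.0225, lost without either NCI-H1581 library) and was 1.23-fold higher in NCI-H1703R (0.30 ± 0.08, edgeR adjusted p = 0.0914). The call in NCI-H1703R was lost under RLE normalisation, with no filter on low counts, in a single fit of all 8 libraries and when any 1 of the 4 libraries was left out. RARA was at 69.8 and 60.7 CPM in NCI-H1581, 54.2 and 66.4 in NCI-H1581R, 50.1 and 47.3 in NCI-H1703 and 66.5 and 68.2 in NCI-H1703R. It rose in NCI-H1703R only (0.50 ± 0.09, edgeR adjusted p = 0.0261), a call lost in a single fit of all 8 libraries and without either NCI-H1703 library. RARB, itself a target of retinoic acid, had 8 counts in each NCI-H1703R library and 0 in the other 6, and was called only with the replicate block. It reached 10 counts only through NCI-H1703R, so the test there could find it only higher or unchanged. Of the retinoid X receptors, RXRA stayed between 2739 and 3207 counts in all 8 libraries and was called only with the replicate block in NCI-H1703R (-0.16 ± 0.07).

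**Figure D3:**
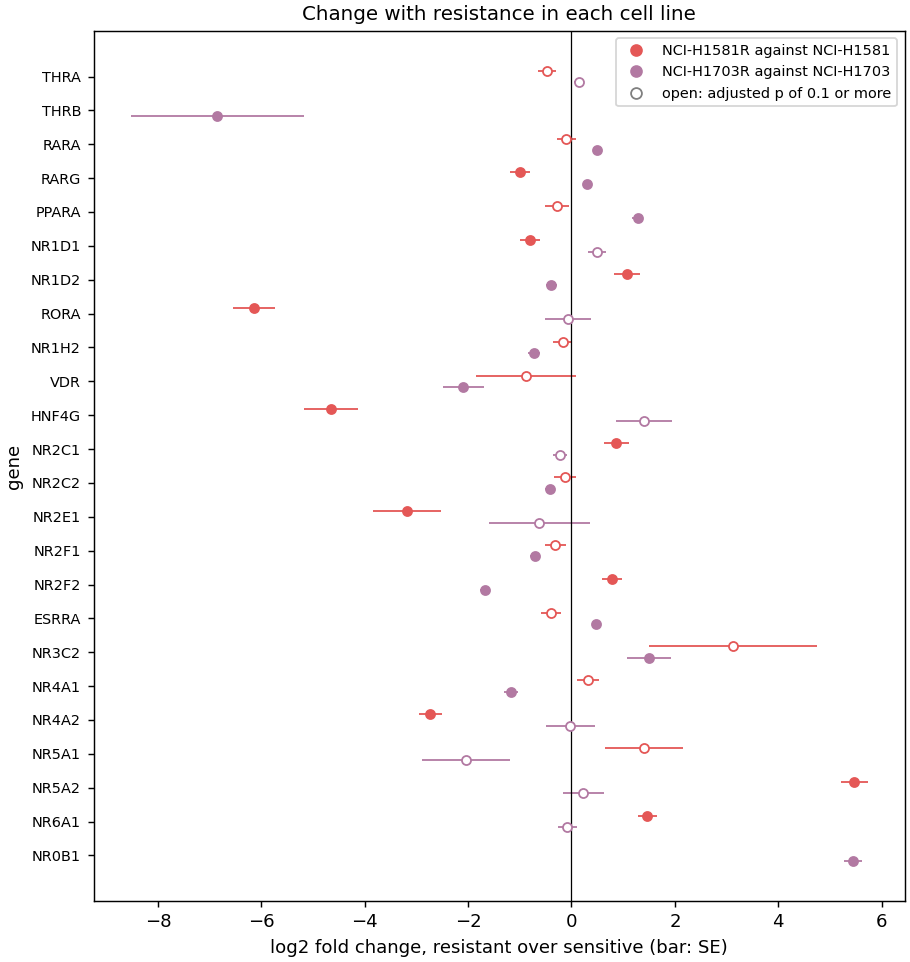
Log2 fold change of resistant over sensitive cells (x axis, bar: SE) for the 24 nuclear receptors called in a line or between the lines (y axis), with a colour for each cell line and open points where the adjusted p was 0.1 or more. NR1D2, NR2F2 and RARG had filled points on both sides of 0. Points were left out where each library of both variants had 3 counts or fewer, and the value of THRB, which had 0 counts in NCI-H1703R, depends on the prior count of the fit.

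To compare the lines, the change with resistance was tested as an interaction of line and variant in all 8 libraries. It differed for 15 of 39 receptors (38.5%) beside 15.4% of all genes. Called in both lines were 3 receptors, NR1D2, NR2F2 and RARG, each with opposite signs, while 8 were called in NCI-H1581R only, 11 in NCI-H1703R only and 17 in neither. The shares of all genes called in both lines, or with opposite signs, were not counted. The NCI-H1703R calls of NR1D2 and RARG were lost when any 1 of the 4 libraries of that line was left out. The interaction was called for 13 of the 22 called in either line, and 11 of the 15 held under every alternative in which they were tested (HNF4G, NR1D1, NR1D2, NR2F2, NR4A1, NR4A2, NR5A2, NR6A1, PPARA, RARG and RORA). Most different among the 15 called were RORA (6.05 ± 0.73, NCI-H1703 change minus NCI-H1581 change on the log2 scale, edgeR adjusted p = 0.00152), HNF4G (6.03 ± 0.72) and NR5A2 (-5.26 ± 0.48). NR5A1 and THRA were called in the interaction and in neither line, and their calls and those of ESRRA and NR2C1 were lost when certain single libraries were left out. A block shared by both lines also lost NR5A1 and THRA. With a block for the replicates of each line, 17 were called (43.6%, beside 18.9% of all genes), NR1H2 and NR2F6 being added. For NR0B1 the difference was not called by edgeR and was called by DESeq2, in a gene with no more than 1 count in any NCI-H1581 or NCI-H1581R library.

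Before any resistance the lines already differed for most receptors. In sensitive NCI-H1703 against sensitive NCI-H1581, 27 of 39 were called (69.2%) beside 62.9% of all genes, with 16 higher in NCI-H1703 (41%, beside 32.5%) and 11 lower (28.2%, beside 30.4%). The share called was thus close to the background. THRB, among the 16 higher, reached 10 counts only through NCI-H1703 and could be found only higher or unchanged here. NR3C1 was 548-fold higher in NCI-H1703 (log2 fold change 9.10 ± 0.27, edgeR adjusted p = 2.39e-07), at 106 ± 6.58 CPM beside 0.179 ± 0.17 (SD, n = 2). PPARG was 23.2-fold higher there and VDR 9.57-fold. RORA was 30.4-fold lower, NR4A2 13.1-fold lower, HNF4G 12.7-fold lower and NR4A1 3.18-fold lower than in NCI-H1581.

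Between the resistant variants, 24 of 39 were called (61.5%) beside 52.5% of all genes, with 15 higher in NCI-H1703R (38.5%, beside 25.9%) and 9 lower (23.1%, beside 26.7%). RARB, among those higher, reached the summed count needed for testing only through NCI-H1703R and could be found only higher or unchanged here. Without either NCI-H1703R library 15 receptors were called. RORA, called between the sensitive lines, was not called here (log2 fold change 1.17 ± 0.50, edgeR adjusted p = 0.118), with 0.311 and 0.687 CPM on average. The difference in NR5A2, which was not called between the sensitive lines (-0.29 ± 0.42), was -5.51 ± 0.26, and that in NR4A1 went from -1.67 ± 0.13 to -3.14 ± 0.23. RARG was 2.48-fold higher in NCI-H1703 before and 6.14-fold higher after selection.

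RXRB must be read with care. It had 0 counts in all 4 NCI-H1581 and NCI-H1581R libraries and 587, 513, 611 and 575 in those of NCI-H1703 and NCI-H1703R. It lies at chr6:33193588-33200665 (GRCh38) in the major histocompatibility region. Of 23 neighbours within 1 Mb with at least 100 counts in a library, 7 (30.4%) had 0 in another library, against 6.88% of 13234 such genes overall. For example, SLC39A7, which overlaps RXRB, had 3394 and 0 counts in the 2 NCI-H1703R libraries. The part of read assignment in this region was not tested, and RXRB counts among the receptors called higher in NCI-H1703 and NCI-H1703R above.

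Genes around the most changed receptors were called in part, where 15.1% of all genes were called in NCI-H1581R and 14.7% in NCI-H1703R. With so few neighbours, no difference from these shares was tested. Within 1 Mb of the start of RORA, 1 of 5 tested genes was called in NCI-H1581R, C2CD4A, which fell with it (log2 fold change -3.65 ± 0.71). Around NR5A2 2 of 8 were called, INAVA (1.20 ± 0.22) and KIF21B (1.96 ± 0.28), both higher. Around NR2E1 1 of 12 was called, FOXO3, which rose (0.80 ± 0.17), and around HNF4G and NR4A2 no gene of 2 each. In NCI-H1703R, TAB3 (0.55 ± 0.09) was called and GK was not around NR0B1. Around VDR 3 of 23 were called, all higher (PCED1B, AMIGO2 and SLC48A1), against the fall of VDR. THRB, NR1D2 and RARB lie within 1 Mb of each other on chromosome 3, and of 5 tested genes around THRB the called ones were UBE2E1 and NR1D2, both lower.

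Genes known to serve or to answer to these receptors, and targets of NRF2, which is not a nuclear receptor, were described from 15 lists chosen with earlier results of these data known. Of 127 tested genes, 30 were called in NCI-H1581R (23.6%, 14 higher and 16 lower) and 30 in NCI-H1703R (23.6%, 17 higher and 13 lower), beside 15.1% and 14.7% of all genes. Without the first or the second NCI-H1581 library 19 were called in that line, without either NCI-H1703 library 8 in the other, and without the first NCI-H1703R library 19. With the replicate block 56 were called in NCI-H1703R. The medians of the list genes, -0.02 and 0.00 on the log2 scale, stood beside 0.05 and 0.01 over all genes. Of the 30 calls in each line, 17 in NCI-H1581R and 8 in NCI-H1703R were made under every alternative in which the gene was tested, and ABCB1, ALDH1A2 and CIART were not tested with a floor of 10 counts in each library. The 8 were APOE, IGFBP4, MT2A, OSGIN1, PLIN2, SGK1, SLC7A11 and TGM2, and the 17 included ABCB1, ALDH1A1, ALDH1A2, CYP26A1, CYP26C1, DHRS3, NRIP1, TSC22D3, KLF9, CPT1A, ANGPTL4, GREB1 and CA12. Every call of the others was lost when at least 1 single library was left out.

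Of 15 tested genes of retinoid handling, 6 were called in NCI-H1581R, 4 higher and 2 lower, with a median log2 fold change of -0.08. ALDH1A2, which makes retinoic acid from retinal, had 3 and 1 counts in NCI-H1581 and 5574 and 4165 in NCI-H1581R. CYP26A1, which degrades retinoic acid and is induced by it, had 194 and 211 counts in NCI-H1581 and 11759 and 11059 in NCI-H1581R, with a log2 fold change of 5.76 ± 0.20 (edgeR adjusted p = 4.16e-05). ALDH1A1, another enzyme that makes retinoic acid, went the other way, from 3458 and 4455 counts to 26 and 26 (-7.29 ± 0.25, edgeR adjusted p = 4.16e-05). The remaining calls, named after their values were seen, were CYP26C1 (25 and 34 to 1467 and 1804 counts) and the binding protein gene CRABP2 (3382 and 3636 to 10156 and 7114), both higher, and DHRS3, a retinal reductase gene (243 and 163 to 18 and 25), lower. In the same cells RARA was not called and RARG fell.

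In NCI-H1703R 4 of 15 retinoid genes were called, 2 higher and 2 lower (median -0.71). TGM2, a transglutaminase gene induced by retinoic acid, fell from 13850 and 11719 counts to 459 and 782 (-4.44 ± 0.23, edgeR adjusted p = 0.000804), and RDH10, which makes retinal, fell from 863 and 1003 to 421 and 509 (-1.09 ± 0.18). ALDH1A3, from 521 and 554 to 975 and 1139 counts, and DHRS3, from 93 and 92 to 219 and 214, rose. CYP26A1, with 36 and 42 counts in NCI-H1703 and 13 and 13 in NCI-H1703R, did not pass the test there (-1.65 ± 0.50, edgeR adjusted p = 0.111). The changes of CYP26A1 (-7.43 ± 0.42), ALDH1A1 (6.75 ± 0.32) and TGM2 (-4.42 ± 0.30) differed between the lines in the interaction test.

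**Figure D4:**
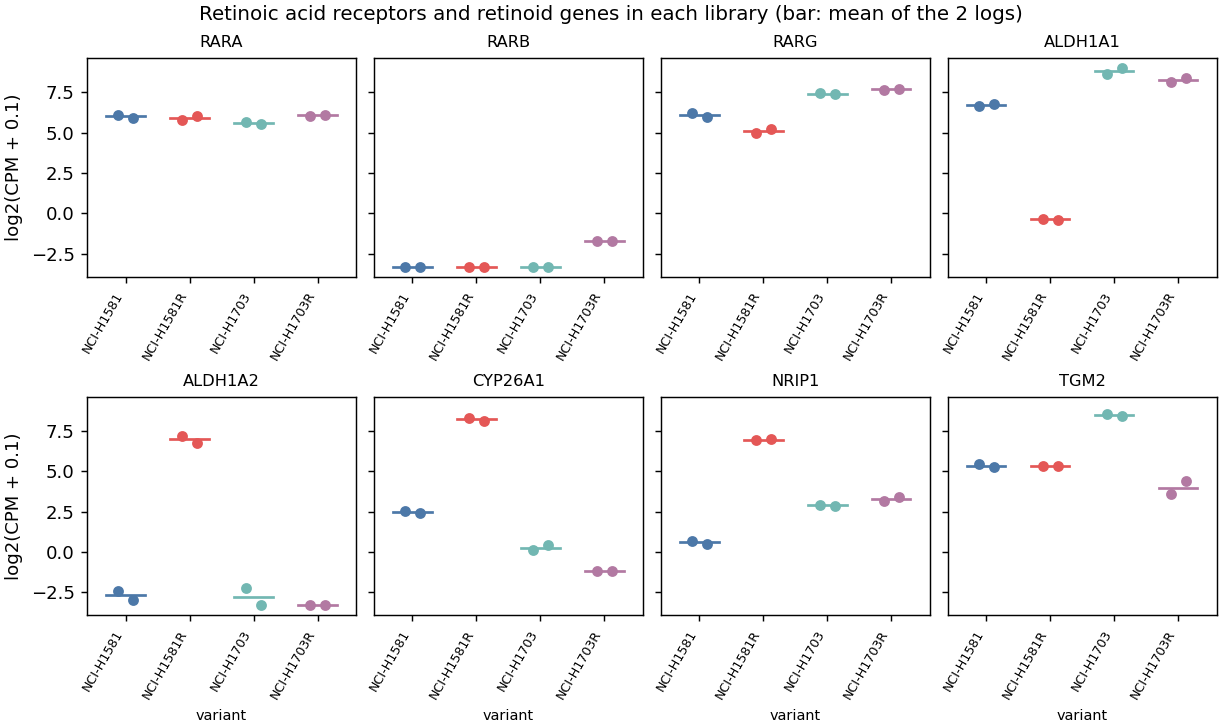
Level of the 3 retinoic acid receptors, 3 retinoid enzymes, the co-repressor gene NRIP1 and TGM2 in each library, as log2(CPM + 0.1) on the y axis by cell line variant on the x axis, with a point for each of 2 libraries and a bar at their mean. ALDH1A2, CYP26A1 and NRIP1 were highest in NCI-H1581R, ALDH1A1 lowest there, and TGM2 lower in NCI-H1703R than in NCI-H1703.

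Of 13 co-activators, 1 was called in NCI-H1581R and 3 in NCI-H1703R (medians -0.04 and 0.04), and PPARGC1B, a partner of ESRRA and PPARA, was in both, lower in NCI-H1581R (908 and 1073 to 485 and 719 counts, -0.77 ± 0.23) and higher in NCI-H1703R (575 and 442 to 825 and 710, 0.53 ± 0.15). Of 10 co-repressors 1 was called in each line (medians 0.05 and -0.07). In NCI-H1581R it was NRIP1 (RIP140), a ligand-dependent co-repressor, which rose from 51 and 53 counts to 4526 and 4980 (6.46 ± 0.23, edgeR adjusted p = 4.16e-05), while it was at 7.54 and 7.21 CPM in NCI-H1703 and 8.72 and 10.5 CPM in NCI-H1703R. None of 10 steroid receptor chaperones was called by edgeR in either line, with 1 at an unadjusted p under 0.05 in each and 0 and 1 called by DESeq2 (medians 0.00 and -0.09).

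Of 10 glucocorticoid receptor targets, 5 were called in NCI-H1581R (2 higher, 3 lower) and 4 in NCI-H1703R (1 higher, 3 lower), with medians of -0.31 and -0.01. TSC22D3, which encodes the anti-inflammatory protein GILZ, rose in NCI-H1581R from 55 and 48 to 652 and 720 counts (3.67 ± 0.28, edgeR adjusted p = 0.000501), in cells with at most 12 counts of NR3C1. SGK1, a kinase gene, fell in NCI-H1703R from 26815 and 25976 to 5094 and 6478 counts (-2.27 ± 0.14, edgeR adjusted p = 0.00134). MT2A, a metallothionein gene with close relatives among which reads may be split, fell in both lines (-2.05 ± 0.22 and -2.65 ± 0.10). KLF9 fell in NCI-H1581R (-3.05 ± 0.34) and DUSP1 in NCI-H1703R (-0.96 ± 0.20).

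Of 9 PPAR targets (medians -0.26 and -0.11), 2 were lower in NCI-H1581R, namely CPT1A, the entry enzyme of mitochondrial fatty acid oxidation (2574 and 3366 to 349 and 895 counts, -2.31 ± 0.39), and ANGPTL4 (345 and 444 to 31 and 61, -3.15 ± 0.35). Where PPARA rose, in NCI-H1703R, 3 targets were called and 2 of them were lower, among them PLIN2, a lipid droplet gene (390 and 385 to 29 and 25 counts, -3.91 ± 0.26). Of 7 liver X receptor targets (medians -0.13 and 0.19), 3 were called in NCI-H1581R (2 higher, 1 lower) and 4 in NCI-H1703R (3 higher, 1 lower). ABCA1, a cholesterol exporter gene named after its values were seen, rose in NCI-H1581R (2 and 0 to 34 and 58 counts) and fell in NCI-H1703R (226 and 189 to 66 and 41, -2.02 ± 0.30). APOE fell in NCI-H1581R (8219 and 13208 to 4326 and 5448 counts, -1.17 ± 0.22) and rose in NCI-H1703R (297 and 264 to 2374 and 3075, 3.21 ± 0.16). NR1H2 fell in NCI-H1703R.

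Clock genes around RORA and the REV-ERBs were called for 3 of 15 in NCI-H1581R and 4 of 15 in NCI-H1703R (medians -0.18 and 0.02). BHLHE40, a clock repressor gene, fell in NCI-H1581R (4558 and 3345 to 1264 and 1298 counts, -1.70 ± 0.25) and was higher in NCI-H1703R (0.37 ± 0.08). CLOCK rose in NCI-H1581R (0.86 ± 0.21), and BMAL1, which RORA activates and REV-ERBs repress, was called in neither line (61 and 74 to 61 and 107 counts in NCI-H1581R). Of 5 oestrogen receptor targets (medians 0.04 and -0.65), GREB1 rose in NCI-H1581R (393 and 480 to 2458 and 3411 counts, 2.69 ± 0.22) and CA12 fell there (769 and 846 to 31 and 37, -4.62 ± 0.28), while IGFBP4 fell in NCI-H1703R (-1.63 ± 0.12).

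The remaining lists held few calls. Of 3 tested targets of NR5A1, none was called by edgeR or DESeq2 in either line and none had an unadjusted p under 0.05 (medians 0.11 and -0.08). Among 6 tested targets of the xenobiotic receptors NR1I2 and NR1I3, only ABCB1, the drug efflux pump gene, was called in NCI-H1581R (1 and 4 to 8585 and 9573 counts), in cells where NR1I2 had 0 counts and NR1I3 at most 19. None of these 6 was called in NCI-H1703R, nor were any of 3 vitamin D genes or 3 thyroid hormone genes, by edgeR or DESeq2, with none at an unadjusted p under 0.05. CYP2R1, a vitamin D hydroxylase gene (0.91 ± 0.20), was higher in NCI-H1581R. Medians in NCI-H1581R and NCI-H1703R were 1.03 and -0.07 for the xenobiotic, 0.73 and 0.17 for the vitamin D and -0.52 and -0.78 for the thyroid list. HSD17B1, which makes oestradiol, was lower in both lines (-1.62 ± 0.28 and -1.17 ± 0.30), the only call among 10 steroid enzymes (medians -0.63 and 0.06). NRF2 targets were called for 3 of 10 in NCI-H1581R (1 higher, 2 lower) and 5 of 10 in NCI-H1703R, all higher, with SLC7A11, a cystine transporter gene, up in both (1.10 ± 0.20 and 1.37 ± 0.11) and list medians of 0.10 and 0.49.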

How the data were processed

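RNA-seq of 8 libraries was read from 1 deposited table. The submitters' processing notes name cutadapt, and the authors quantified reads with Salmon on GRCh38 with gene-level sums made in tximport, and they deposited estimated counts as whole numbers without normalisation. Tool versions, annotation, strand setting and tximport scaling are not given in the sources used here. Groups and replicate numbers came from the labels. Symbols, positions and lengths came from GENCODE v44, promoter windows from RefSeq.

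The estimated counts, already whole, were tested with edgeR 4.0.16 in R 4.3.3 (TMM, quasi-likelihood F test, two-sided, non-legacy dispersions), on each comparison's own 4 libraries or on all 8 for the interaction, for genes whose counts summed to 10 or more. Calls were made at an adjusted p under 0.1. The SE is the size of the log2 fold change over the square root of F. CPM use TMM over the 8 libraries. The script was tested on simulated data. P-values measure the spread between 2 repeated cultures of a line, which may be technical. Totals were 33800389 to 40031710.

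Same-numbered libraries of a line may come from the same round of the repeated procedure, which the sources used here do not state. Their deviations correlated over 9716 genes (0.284 in NCI-H1581, 0.552 in NCI-H1703), so the replicate block within a line is given where it changes a call. Alternatives were DESeq2 1.42.0, RLE, both count filters, the block, a single fit, a threshold of 0.05, each library left out, longest transcript length and, added after seeing the data, legacy dispersions.

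The receptors and lists were chosen with earlier results of these data known. Named were receptors called in a line or the interaction, the 5 highest per length, NR0B1, up to 3 genes per list with the smallest adjusted p and at least 5 CPM, and neighbours within 1 Mb of receptors changed by over 2 on the log2 scale. Other genes named for context were chosen after their values were seen. Some genes that this rule selects are left out of the text.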

Additional observations from a re-analysis of the deposited data

Results flagged for a closer look

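The change with resistance differed between the lines by the interaction test for 15 receptors, given here as the log2 change in NCI-H1703 minus that in NCI-H1581. More positive in NCI-H1703 were RORA (6.05), HNF4G (6.03), NR4A2 (2.69), PPARA (1.53), RARG (1.27), NR1D1 (1.26), ESRRA (0.86) and THRA (0.60). More negative in NCI-H1703 were NR5A2 (-5.26), NR5A1 (-3.46), NR2F2 (-2.49), NR6A1 (-1.57), NR4A1 (-1.51), NR1D2 (-1.50) and NR2C1 (-1.11). RORA, HNF4G, NR4A2 and NR5A2 were called in NCI-H1581R, and their changes in NCI-H1703R were -0.07, 1.40, -0.02 and 0.23, none of which was called. NR2F2 and NR1D2 were called in each line with opposite signs, as was RARG. The NCI-H1703R calls of NR1D2 and RARG were lost when any 1 of the 4 libraries of that line was left out. NR5A1 had at most 23 counts in any library and its call was not made by DESeq2.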

How the results depend on the processing

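Of 981 values of 25 named receptors under the alternatives, 865 kept their side of the threshold, 91 lost the call, 25 gained one and 0 called values changed sign. The count of receptors called in NCI-H1703R (14) was 8 in a single fit of all 8 libraries and 23 with the replicate block. With a floor of 10 counts in each library, 17 of the 27 calls between the sensitive lines and 14 of the 24 between the resistant variants were counted, since fewer receptors were then tested. List genes called in NCI-H1703R (30) became 56 with the replicate block and 19 at 0.05. Leaving out 1 library gave 6 to 14 receptors in NCI-H1581R, 3 to 9 in NCI-H1703R, 15 to 24 between the resistant variants, and 19 to 45 and 8 to 20 list genes in NCI-H1581R and NCI-H1703R. A lone library was then taken to vary like the rest of the fit, and fewer samples entered. The cause of the changes with the single fit and the block was not tested. The replicate block changed no receptor call in NCI-H1581R, where list genes went from 30 to 31. Between lines the samples share only a number (correlation of deviations -0.565 for the resistant variants and 0.0826 for the sensitive lines), and with the block 18 in place of 24 receptors were called between the resistant variants and 27 in both fits between the sensitive lines. The block changed no other receptor call beside those given above. THRB, RARB and NR5A1, with at most 23 counts in a library, are limited by depth.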

Other observations

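RXRA, the shared partner of many other receptors, stayed within 74.8 to 86.7 CPM in all 8 libraries.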
